A study of Oryza sativa with 18 samples.

Results

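The 65 genes described here stood apart in the FKBP57 knockout of rice and in neither of the other genotypes. They are 65 of the 37863 genes counted in leaf mRNA, and 55 lay above and 10 below the other libraries. They were chosen by their measured levels, in CPM (a gene's count scaled to the library's total count). All 6 FKBP57 knockout libraries had to lie above, or all below, the other 12 libraries. The mean on the higher side had to reach 0.5 CPM, and the ratio of means, each with 0.1 CPM added, had to be at least 2 or at most 0.5. Wild type and the FKBP73 knockout had to differ by less than 2-fold on the same scale. Levels of the FKBP57 knockout against the others are therefore a description, with no test.

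The 18 libraries came from leaves of 3 genotypes: an FKBP57 knockout line, an FKBP73 knockout line and the wild-type cultivar Ningjing 4. Each genotype was grown with 150 mM NaCl for 4 h (salt) or in normal nutrient solution (control), with 3 biological replicates per group per the series design. No time is given for the control libraries, so harvest time or handling and salt cannot be told apart. Each knockout is labelled as 1 genotype with no number of independent lines, so loss of the named protein and any other difference carried by that line cannot be told apart.

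Both proteins are FK506-binding proteins, a family named after the immunosuppressant it binds. The family's shared domain is a peptidyl-prolyl isomerase, which speeds the turning of the peptide bond before proline during protein folding. Large plant members of the family carry further domains for contact with other proteins, among them heat shock proteins. The series title connects both proteins with salt tolerance through the SOS pathway, which moves sodium out of cells.

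The genes carry RAP-DB identifiers, whose leading digits give the chromosome. No source used here pairs these identifiers with names, and none of the 65 was found in the reference table, so no role is given for any of them. The genes that encode the targeted proteins were not analysed here, so neither knockout was checked at its target, and the leaf label was not checked against marker genes. Whether strand was used in the counting is not stated in the sources used here, so overlapping, antisense and near-identical genes could share reads.

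Library totals ran from 27601098 to 39894394 counts, and the scaling factors for library composition from 0.779, in FKBP57 knockout control 3, to 1.11. On the first principal component, with 44.4% of the variance, 3 libraries stood apart from their groups. They were wild type control 3 at 2.40, FKBP57 knockout control 3 at 15.5 and FKBP57 knockout salt 3 at -18.3. Without these 3 libraries the rule chose 78 genes, including all 65. No overlap is easier to meet with fewer libraries, so keeping the 65 follows largely from the rule. On levels scaled for composition it chose 61 genes, of which 60 were among the 65.

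Of all genes, 84 had FKBP57 knockout libraries that did not overlap the other 12. The floor of 0.5 CPM removed 6 of them, the ratio 11 and the limit between wild type and the FKBP73 knockout 2. The same rule set apart 5 genes in the FKBP73 knockout (3 above, 2 below) and 7 in wild type (5 above, 2 below). Without the floor, the ratio and the limit between the other genotypes, 14 genes did not overlap in the FKBP73 knockout and 8 in wild type.

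**Figure D1:**
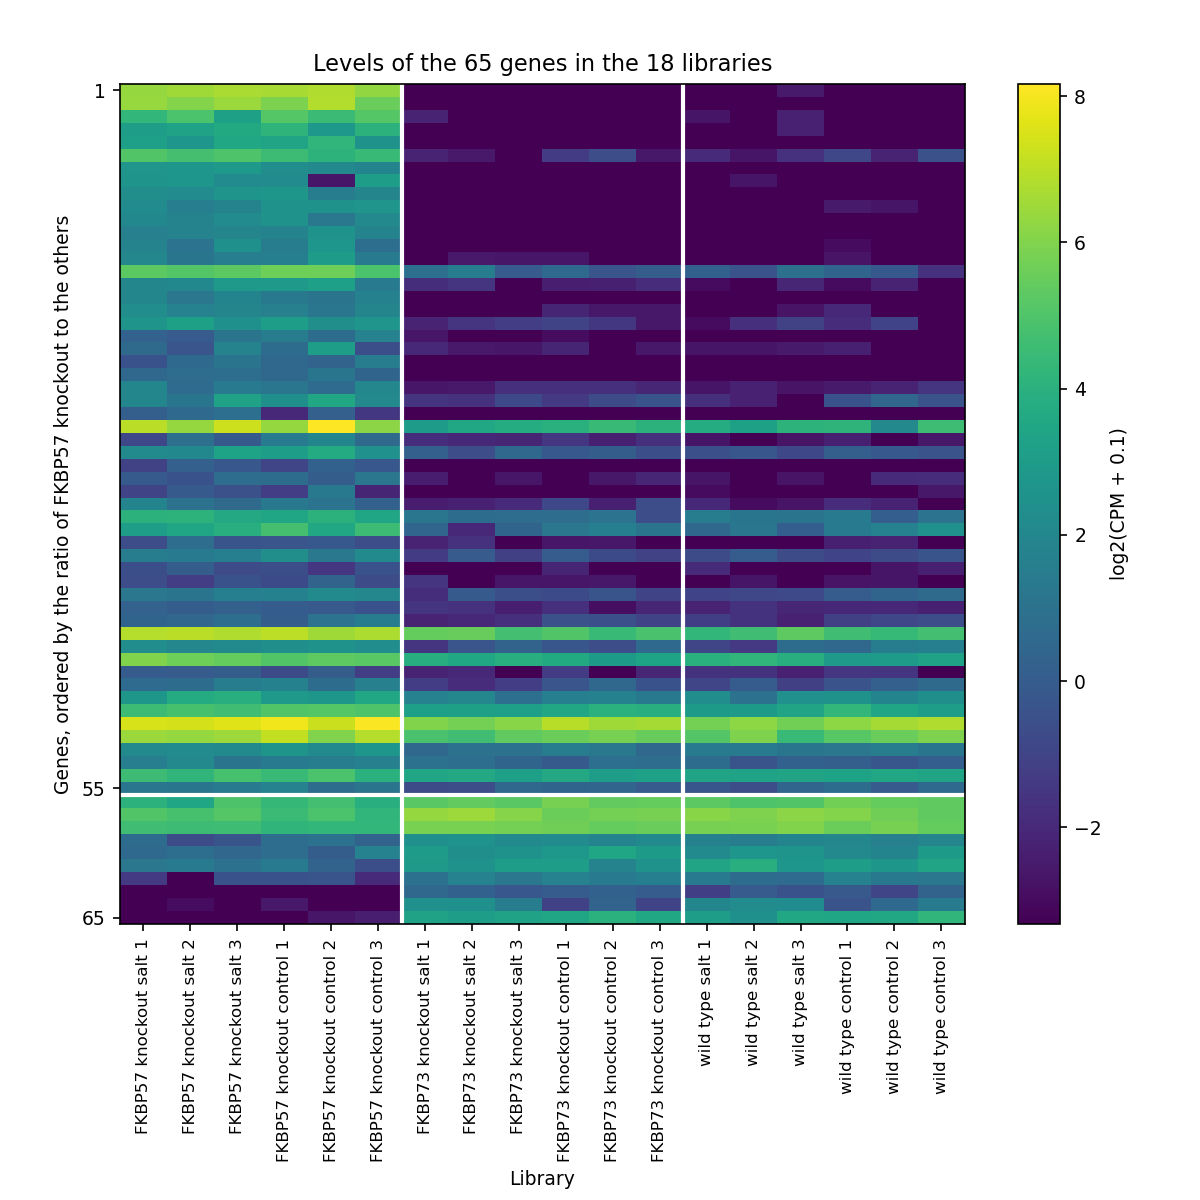
Level of each of the 65 genes (rows, ordered by the ratio of FKBP57 knockout to the others) in each of the 18 libraries (columns), as log2(CPM + 0.1) in colour. White lines part the 3 genotypes and the 55 genes above from the 10 below, and many rows among the 55 are at 0 CPM in the FKBP73 knockout and wild type.

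The 55 genes above ranged from genes with no read outside the FKBP57 knockout to genes measured in every genotype. No read was counted in any of the 12 other libraries for 11 of them, and 9 more had 1 to 10 counts over those libraries. The 11 genes had 142 to 14566 counts over the 6 FKBP57 knockout libraries, where their mean levels were 0.748 to 75.9 CPM with a median of 3.80 CPM. Every one of the 11 was counted in each of the 6 libraries, which the rule requires of a gene with no count elsewhere. A count of 0 over the 12 libraries allows a level of up to 0.00755 CPM, taken as 3 counts of their summed totals and covering counting error only. Set against that limit, the 11 genes were at least 99.0-fold to at least 10057-fold higher in the FKBP57 knockout.

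In all, 27 of the 55 genes averaged under 0.1 CPM in the other libraries, 13 averaged 0.1 to 1 CPM and 15 at least 1 CPM. Among these 15 genes, the ratio of FKBP57 knockout to the others ran from 2.16 to 31.2 with a median of 2.68. Over all 55 the median ratio was 9.24, with a range of 2.16 to 888. By size, 14 ratios were between 2 and 4, 15 between 4 and 10, 19 between 10 and 50, and 7 above 50. In bulk leaf RNA, more or fewer cells of a type and more or less RNA per cell cannot be told apart.

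**Figure D2:**
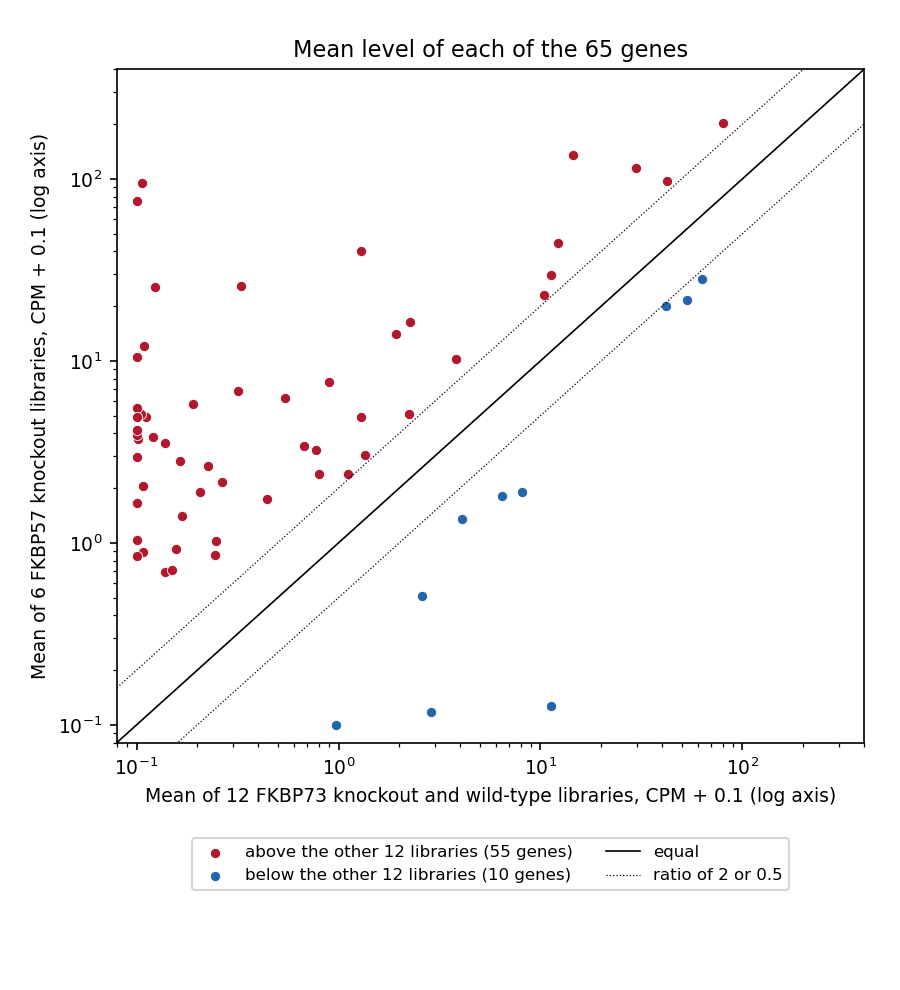
Mean level of each of the 65 genes in the 6 FKBP57 knockout libraries (vertical) against the 12 FKBP73 knockout and wild-type libraries (horizontal), both as CPM + 0.1 on log axes. The column of red points at the left edge holds genes with few or no counts outside the FKBP57 knockout, and the blue points are the 10 genes below.

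Os03g0115800 had the highest ratio, 888. It stood at 80.2, 92.3 and 104 CPM in the FKBP57 knockout under salt and at 102, 111 and 78.1 CPM under control. Over the 12 other libraries it had 3 counts, all in wild type salt 3, which was at 0.0804 CPM. Its level was thus similar in the 6 FKBP57 knockout libraries, with a mean of 94.6 ± 13.3 CPM (SD, n = 6).

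Os03g0299700 stood at 83.8, 65.6 and 86.9 CPM in the FKBP57 knockout under salt and at 59.0, 114 and 46.4 CPM under control, against 0 in all 12 other libraries. Its 14566 counts made it at least 10057-fold higher in the FKBP57 knockout. The control libraries of this gene spread more widely than its salt libraries and enclosed them.

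The 2 genes above with the highest mean CPM were not silent elsewhere. CPM is not scaled by gene length, so it does not rank genes by abundance. Os02g0644700 stood at 176, 170 and 193 CPM in the FKBP57 knockout under salt and at 241, 154 and 275 CPM under control. In the 12 other libraries its lowest value was 52.2, its median 73.9 and its highest 123 CPM, a ratio of 2.51. Os01g0537250 stood at 127, 81.1 and 156 CPM in the FKBP57 knockout under salt and at 82.0, 287 and 72.6 CPM under control. Its lowest value in the other libraries was 4.13, its median 14.8 and its highest 24.4 CPM, a ratio of 9.24. The value of 287 CPM, in control 2, was far above those of the other 5 FKBP57 knockout libraries.

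The 10 genes below had ratios of 0.0113 to 0.481 with a median of 0.257. In the FKBP57 knockout, 1 of them had no count and 3, this one included, had at most 10 counts over the 6 libraries, while 6 averaged at least 1 CPM. Almost no reads were thus left for 3 genes, and 6 were still clearly measured at lower levels.

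Os01g0382450 had the lowest ratio, 0.0113. It had 5 counts in the FKBP57 knockout, with 0, 0 and 0 CPM under salt and 0, 0.0636 and 0.0972 CPM under control. In the 12 other libraries its lowest value was 5.41, its median 10.9 and its highest 18.8 CPM. Every one of the other 12 libraries lay far above the highest FKBP57 knockout value.

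Os07g0456400 stood at 24.8, 23.2 and 24.1 CPM in the FKBP57 knockout under salt and at 18.4, 19.5 and 19.4 CPM under control. In the other libraries its lowest value was 43.7, its median 54.9 and its highest 63.2 CPM, a ratio of 0.407. Os01g0512100 stood at 32.7, 28.6 and 35.6 CPM in the FKBP57 knockout under salt and at 22.4, 30.002 and 18.6 CPM under control. Its lowest value in the other libraries was 40.4, its median 63.8 and its highest 89.1 CPM, a ratio of 0.444. Both genes were clearly measured in all 18 libraries, and Os01g0512100 came closer to overlap.

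**Figure D3:**
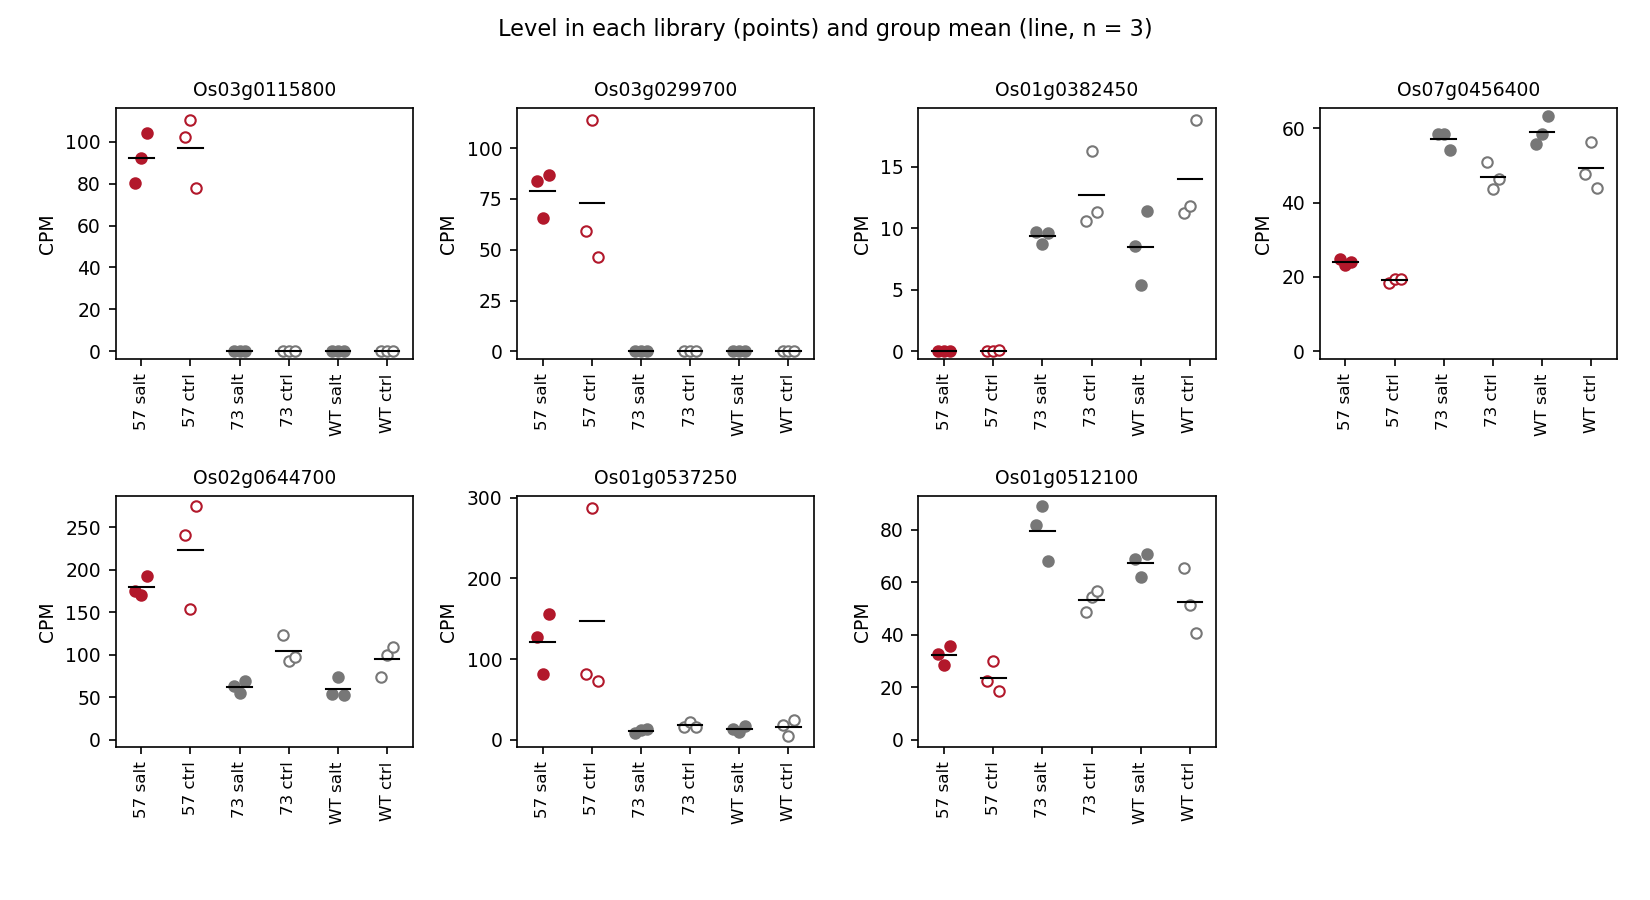
CPM of 7 genes in each library (points, filled for salt and open for control) with the mean of 3 libraries (line), for the FKBP57 knockout (57, red), the FKBP73 knockout (73, grey) and wild type (WT, grey). The axes are linear and differ between panels, and Os03g0115800 and Os03g0299700 lie at or near 0 outside the FKBP57 knockout.

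The threshold cut through a run of similar ratios. Os09g0283600, at 2.16, was the gene nearest inside the ratio of 2, and Os03g0595800, at 1.95, the nearest outside. At the lower threshold of 0.5, Os03g0608700 lay inside at 0.481 and Os10g0128400 outside at 0.524.

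Within the FKBP57 knockout, the highest library was a median of 2.40 times the lowest over the 65 genes, each with 0.1 CPM added, with a range of 1 to 52.3. The ratio was at least 2 for 42 genes and at least 5 for 7. Over the 23955 genes that averaged at least 0.5 CPM in a genotype, called detected genes below, the median was 2.52. FKBP57 knockout control 2 held the highest of the 6 values for 23 of the 65 genes (35.4%), against 37.4% of detected genes. FKBP57 knockout control 3 held the lowest for 18 (27.7%), against 40.6% of detected genes.

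The widest spread was that of Os04g0355401, named after its values were seen. It stood at 6.06, 6.50 and 4.51 CPM in the FKBP57 knockout under salt and at 4.57, 0.0636 and 8.46 CPM under control, the low value being 2 counts. It had 2 counts in all over the 12 other libraries, both in wild type salt 2 at 0.0552 CPM. FKBP57 knockout control 2 thus nearly joined the other genotypes at this gene.

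Summed over the 55 genes above, levels were 959 to 1210 CPM in the FKBP57 knockout libraries and 173 to 278 CPM in the others. Summed over the 10 below, they were 58.5 to 95.1 CPM in the FKBP57 knockout and 172 to 225 CPM in the others. That these sums do not overlap follows from the rule.

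The 65 genes lay on all 12 chromosomes, a feature that the rule did not use. Chromosome 1 held 12 of them, chromosome 6 held 9, chromosome 3 held 8 and chromosome 8 held 1. Per 1000 detected genes this was 0.619 on chromosome 8 to 4.71 on chromosome 6. Taking identifiers within 10 places of each other in the table's order as one group, 58 genes stood alone and 7 fell into 3 groups. The median gap between consecutive genes of a chromosome was 288 identifiers.

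The longest group was a run of 3 genes on chromosome 7, from Os07g0511100 to Os07g0511400, with ratios of 8.12, 30.2 and 31.2. Os07g0511400 stood at 39.1, 34.4 and 39.1 CPM in the FKBP57 knockout under salt and at 48.9, 48.8 and 30.2 CPM under control. Its lowest value in the other libraries was 0.208, its median 1.02 and its highest 2.79 CPM. Os07g0511100 stood at 3.49, 1.92 and 1.49 CPM in the FKBP57 knockout under salt and at 2.39, 1.97 and 1.07 CPM under control. Its highest value in the other libraries was 0.549 CPM and its median 0.110 CPM. The identifier lying within the run had 9 counts, all in the FKBP57 knockout. The run had sharp edges in the table's order, since the identifiers on either side had ratios of 0.936 and 0.980.

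A pair on chromosome 10, Os10g0460766 and Os10g0460800, had no count outside the FKBP57 knockout. Os10g0460766 stood at 4.07, 3.39 and 4.51 CPM in the FKBP57 knockout under salt and at 5.80, 2.35 and 4.18 CPM under control. Os10g0460800 stood at 4.97, 4.61 and 6.09 CPM in the FKBP57 knockout under salt and at 6.70, 2.74 and 3.69 CPM under control. The preceding identifier had 26 counts, all in the FKBP57 knockout, and the following one a ratio of 1.08.

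The third group was a pair below on chromosome 2, Os02g0163300 and Os02g0163500, with ratios of 0.196 and 0.330. The identifier between them had a ratio of 0.398 and the one after them 0.425, but both overlapped the other libraries. With no annotation of positions used here, shared reads between adjacent genes were not tested.

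Of the 123 nearest detected genes outside the 65, 6 (4.88%) differed by 2-fold or more between the FKBP57 knockout and the others, against 288 of 23890 detected genes outside the 65 (1.21%). The identifiers between and after the chromosome 2 pair, at 0.398 and 0.425, are among these 6. No test was made of the difference in share, and both counts leave out the genes that the rule took.

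Identifiers that do not end in 00 made up 17 of the 65 genes (26.2%) and 2119 of the 23955 detected genes (8.85%). Among all genes of the table the share was 21.1%. By direction they were 15 of the 55 genes above and 2 of the 10 below. No test was made of this difference in share.

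The rule did not use the salt contrast within a genotype, so the response of the 65 genes to salt was tested with edgeR's quasi-likelihood test, adjusted over 25957 genes by the Benjamini-Hochberg method and called at an adjusted p under 0.05. All 65 genes passed the filter on low counts for this test. The rule bears on it indirectly, because a gene whose 6 FKBP57 knockout libraries must clear the other 12 can move only so far with salt.

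In the FKBP57 knockout, edgeR called none of the 65 genes for salt, while 4.64% of all tested genes were called higher and 1.68% lower. At an unadjusted p under 0.05 there were 5 of the 65, against 21.4% of all tested genes. The median SE on the log2 scale was 0.46 for the 65 genes and 0.35 for all tested genes. The 65 were thus measured less precisely, so these shares do not show a weaker response than that of other genes. DESeq2 called none, against 10.9% of all genes with an adjusted p, and had 7 at an unadjusted p under 0.05, against 19.7% of all genes. The median log2 fold change was -0.30, against -0.10 over all tested genes, and 59 of the 65 (90.8%) lay under 2-fold, against 81.2% of all tested genes. Of the 65, 2 had at most 3 counts under salt and at most 3 under control, 1 of them none. Of the other 63, 58 lay under 2-fold. Among the 55 genes above, 39 fold changes were negative and 16 positive, where all tested genes had 15065 negative and 10884 positive. The lowest adjusted p, 0.0818 by edgeR, was that of Os01g0382450 and rested on its 5 counts.

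Without the 3 libraries that stood apart, edgeR called 2 of the 65 genes, both lower under salt, while calls over all tested genes were 4695 (17.9%), against 1641 with all libraries. They were Os03g0608700, at a log2 fold change of -0.71 (adjusted p = 0.0251), and Os04g0498900, at -1.30 (adjusted p = 0.0414), the last named after its values were seen. Leaving out 1 library at a time called at most 1 gene, after FKBP57 knockout control 1, control 2, salt 1 or salt 3 was removed.

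In the FKBP73 knockout, 18 of the 65 genes had at most 3 counts under salt and at most 3 under control, 17 of them none. The other 47 had a median log2 fold change of -0.28, against -0.03 over all tested genes. edgeR called 2 of the 65 higher under salt, where 8.88% of all tested genes were called higher, and 3 lower, where the share was 5.46%.

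Os04g0310400, a gene below, stood at 5.41, 5.40 and 2.76 CPM under salt and at 0.377, 1.16 and 0.412 CPM under control in the FKBP73 knockout. The salt libraries all lay above the control libraries, and the log2 fold change was 2.73 ± 0.67 (SE, edgeR adjusted p = 0.0132). In the FKBP57 knockout it had 3 counts in all 6 libraries.

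Os01g0512100, also a gene below, stood at 81.6, 89.1 and 67.9 CPM under salt and at 48.7, 54.3 and 56.7 CPM under control in the FKBP73 knockout. It rose under salt by 0.55 ± 0.13 on the log2 scale (SE, edgeR adjusted p = 0.0124).

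The 3 genes lower under salt in the FKBP73 knockout were genes above. Os01g0267300 stood at 0.120, 0.141 and 0.192 CPM under salt and at 0.628, 0.596 and 0.412 CPM under control, a difference of -1.86 ± 0.53 on the log2 scale (SE, edgeR adjusted p = 0.0285). Os05g0304501 stood at 0.329, 0.176 and 0.320 CPM under salt and at 0.722, 1.32 and 0.652 CPM under control, a difference of -1.73 ± 0.56 on the log2 scale (SE, edgeR adjusted p = 0.0497), a call lost in 15 of 24 alternatives. The third, Os06g0544100, named after its values were seen, differed by -0.71 ± 0.23 on the log2 scale (SE, edgeR adjusted p = 0.0473). Of the 65 genes, 0 were called without FKBP73 knockout control 1 or salt 1, 1 without its salt 2 and 2 without its control 2. There were 3 calls without its control 3 or salt 3, without FKBP57 knockout control 1 or any of its salt libraries and without wild type control 2 or salt 1. Over all tested genes, calls were 2203 without FKBP73 knockout control 1, 1908 without its salt 1, 1967 without its salt 2 and 2738 without its control 2, against 3722 with all libraries. They were 2196 without FKBP73 knockout control 3 and 3268 without its salt 3. In the other settings with 3 calls among the 65, they ran from 3303 to 3777.

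In wild type, 17 of the 65 genes had at most 3 counts under salt and at most 3 under control, 12 of them none. The other 48 had a median log2 fold change of -0.26, against -0.06 over all tested genes. edgeR called 2 of the 65 higher under salt, where 13.6% of all tested genes were called higher, and 3 lower, where the share was 10.9%. These counts include the genes with at most 3 counts, and the rule limits such changes, so they were not compared with the shares.

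Os11g0213000, a gene above, stood at 15.4, 18.8 and 15.3 CPM under salt and at 7.12, 7.99 and 9.69 CPM under control in wild type. Its log2 fold change was 1.01 ± 0.24 (SE, edgeR adjusted p = 0.00743), and the groups did not overlap. In the FKBP57 knockout it stood at 63.0, 50.2 and 43.0 CPM under salt and at 32.9, 40.1 and 37.0 CPM under control. There too the salt libraries all lay above the control libraries, but edgeR made no call.

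Os01g0512100 was called in wild type as well as in the FKBP73 knockout, as the 1 gene called in both. It stood at 68.7, 62.1 and 70.8 CPM under salt and at 65.5, 51.3 and 40.4 CPM under control in wild type. Its log2 fold change was 0.40 ± 0.13 (SE, edgeR adjusted p = 0.0369), and salt 2 overlapped the control libraries. This call was lost in 13 of 24 alternatives, among them RLE scaling, no filter on low counts and the replicate block.

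Os09g0337500, a gene above, stood at 0.198, 0.110 and 0 CPM under salt and at 0.652, 1.30 and 0.657 CPM under control in wild type, a difference of -3.02 ± 0.78 on the log2 scale (SE, edgeR adjusted p = 0.0126). Os06g0510200, named after its values were seen, differed by -1.41 ± 0.43 on the log2 scale (SE, edgeR adjusted p = 0.0288). The call of Os03g0573001 rested on 5 counts under control and 0 under salt (edgeR adjusted p = 0.0396), so its fitted fold change is no bound and is not given. It was lost in 11 of 23 alternatives, DESeq2 and the replicate block among them. Leaving out wild type control 2 reduced the 5 calls to 1, and leaving out wild type salt 1 or salt 2 reduced them to 2. They were 3 without wild type salt 3, FKBP57 knockout control 1 or FKBP57 knockout salt 1. Over all tested genes, calls were 3604 without wild type control 2, 4488 without its salt 1, 4376 without its salt 2 and 3093 without its salt 3, against 6364 with all libraries. They were 6348 without FKBP57 knockout control 1 and 5791 without its salt 1.

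**Figure D4:**
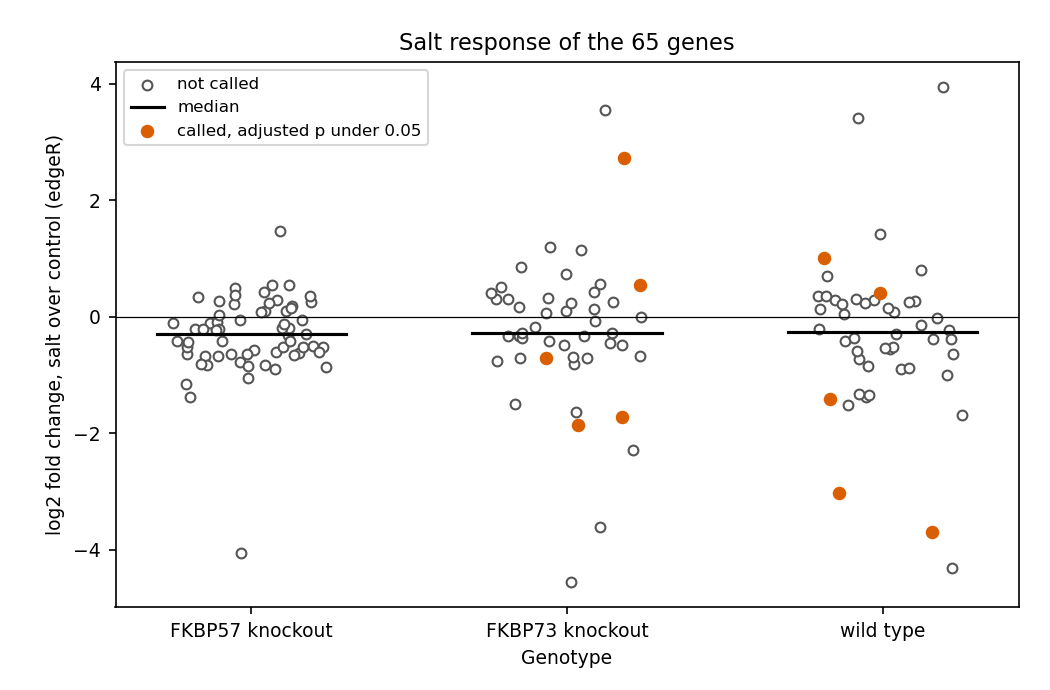
Log2 fold change of salt over control (edgeR, vertical) in each genotype (horizontal) for those of the 65 genes with more than 3 counts in either group. Filled points were called at an adjusted p under 0.05 (0, 5 and 5 genes), lines are medians (-0.30, -0.28 and -0.26), and points far from 0 include genes with few counts.

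Calls in 1 genotype and not in another do not show that the responses differ, so the difference itself was tested, as the salt response of the FKBP57 knockout minus the mean of those in the other genotypes. edgeR called none of the 65 genes, and 0% of all tested genes in either direction. At an unadjusted p under 0.05 there were 5 of the 65 and 5.36% of all tested genes. DESeq2 called none of the 65, against 0.0858% of all genes with an adjusted p. It had 5 of the 65 at an unadjusted p under 0.05, against 5.61% of all genes, and 6 without an adjusted p. The difference can be read for the 42 genes with counts in all 4 groups of the other genotypes. Their median was -0.08 on the log2 scale (range -3.45 to 2.26), with a median SE of 0.58 and a lowest edgeR adjusted p of 0.897.

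Whether genes set apart in 1 condition were also apart in the other was tested by applying the rule to 9 libraries of a condition and reading the genes in the 9 of the other. The fold changes compare those 9 libraries, but the fit took its spread and scaling from all 18, including those that chose the genes. A fit of only the 9 libraries read is therefore given beside each count. Both conditions share the same lines, so this speaks to the libraries and not to other lines. The contrast was the FKBP57 knockout against the mean of the FKBP73 knockout and wild type.

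The 9 control libraries chose 119 genes, 65 above and 54 below, of which 58 (48.7%) were among the 65 genes set apart in all libraries. A gene with no overlap in all libraries has none in these 9 either. That most of the 65 were chosen again thus follows largely from the rule and is no separate result. In the salt libraries, edgeR called 54 of the 119 (45.4%) in the direction in which they were chosen, against 0.385% of all tested genes called in either direction. They were 47 of the genes above and 7 of those below, and no gene was called in the opposite direction. The fit of only the 9 salt libraries called 56 of the 119, against 0.536% of all genes tested in it. The 3 FKBP57 knockout libraries did not overlap the other 6, in the chosen direction, for 78 genes (65.5%), against 7.38% of all tested genes in either direction. By direction, these were 59 of the 65 above and 19 of the 54 below.

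The 9 salt libraries chose 345 genes, 220 above and 125 below, of which 62 (18.0%) were among the 65. Here too, that most of the 65 were chosen again follows largely from the rule. In the control libraries, edgeR called 55 of the 345 (15.9%) in the chosen direction, against 0.258% of all tested genes, 49 of those above and 6 of those below, and none in the opposite direction. The fit of only the 9 control libraries called 28 of the 345, against 0.128% of all genes tested in it. No overlap in the chosen direction was found for 77 genes (22.3%), against 1.62% of all tested genes, 63 above and 14 below. The genes chosen under salt were thus more numerous, and a smaller share of them was called in the other condition.

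**Figure D5:**
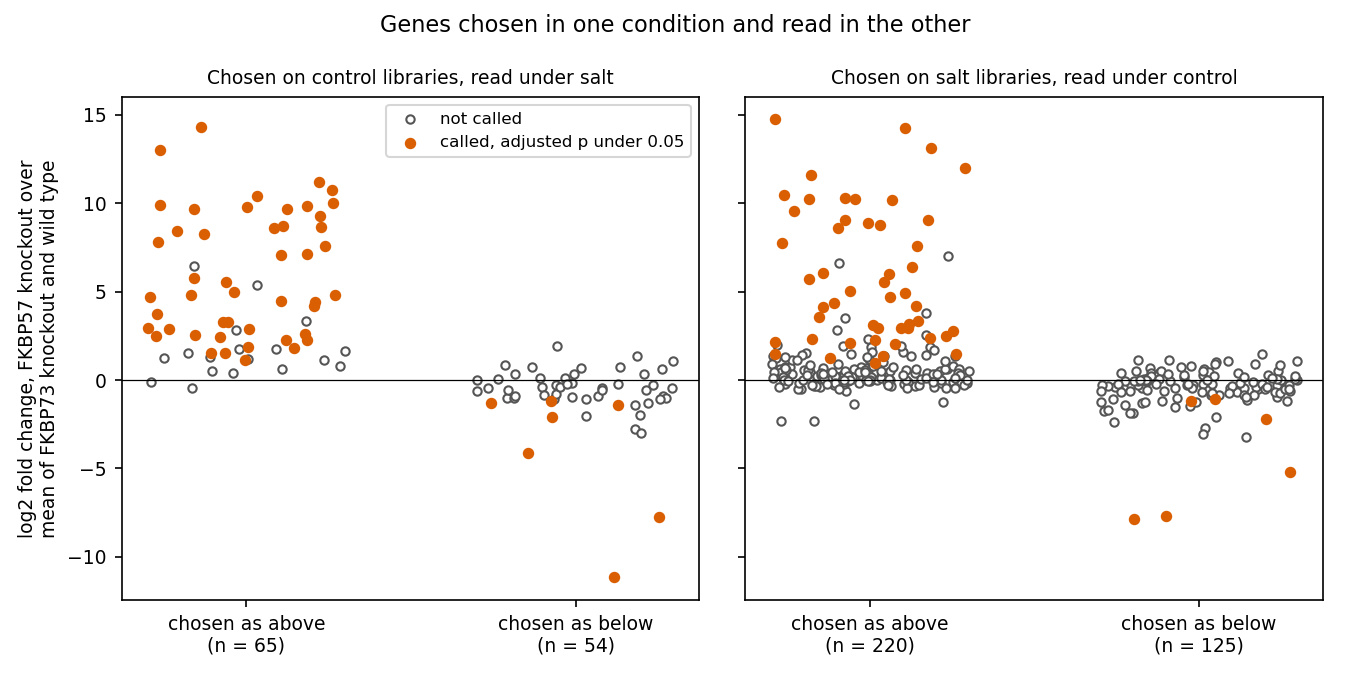
Log2 fold change of the FKBP57 knockout over the mean of the FKBP73 knockout and wild type (edgeR) for genes chosen on 9 libraries of a condition and read in the 9 of the other, by the direction in which they were chosen. Filled points were called at an adjusted p under 0.05 (54 of 119 and 55 of 345), and fold changes far from 0 include genes with no count in a group, whose fitted size is no bound.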

How the data were processed

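The authors deposited whole-number counts of reads for each gene in 1 table. They used HTSeq 0.9.1, fastp 0.22.0 and build IRGSP-1.0 of the genome, per the submitters' processing notes. The aligner, annotation release and filters are not stated in the sources used here. Per the labels' protocols, mRNA was selected on poly-T beads and copied from random primers.

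CPM was computed from library totals, with no composition scaling. Salt contrasts, the difference of salt responses and the contrasts in the condition that had not chosen the genes were fitted in edgeR 4.0.16 (R 4.3.3). The quasi-likelihood model had 6 group means over all 18 libraries, TMM scaling and filterByExpr (minimum count 10, minimum total 15), which kept 25957 genes. Adjustment was by Benjamini-Hochberg over these genes, with a call at an adjusted p under 0.05. The common dispersion was 0.142. Each SE given with an edgeR fold change was derived as the absolute log2 fold change divided by the square root of the test's F statistic. The test was checked on simulated counts. Alternatives were DESeq2 1.42.0, RLE, no filter, fits of only the groups compared, a replicate block, each library left out and other limits of the rule. Leaving out 3 libraries was chosen after seeing the data.

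The members and lists were chosen with earlier results of these data known. Genes printed are the 2 above and 2 below with the most extreme ratio (mean of at least 10 CPM) or the highest mean, up to 2 called higher and 2 lower per contrast, run ends and genes nearest a threshold. The members of the adjacent pairs, and the others marked so, were named after their values were seen.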

Additional observations from a re-analysis of the deposited data

How the results depend on the processing

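The rule chose 46 to 78 genes in every alternative except a floor of 5 CPM in place of 0.5, which left 30. Leaving out each library gave 64 to 70, though no overlap is easier to meet with fewer libraries. For salt in the FKBP57 knockout, 2 genes were called without the 3 libraries and 0 to 1 with each library left out. Over all tested genes, 17.9% were called without the 3 libraries and 2.83% to 11.3% with each library left out. For salt in the FKBP73 knockout, DESeq2 called 8, no filter on low counts 3 and the replicate block 3 of the 65, and leaving out each library gave 0 to 6. Over all genes with an adjusted p, the shares were 18.8%, 10.5% and 12.6%, and 7.25% to 19.4% with each library left out. For salt in wild type, a fit of only the groups compared called 2, and leaving out each library gave 1 to 7. The shares over all tested genes were 18.7%, and 11.8% to 32.1% with each library left out. The difference of salt responses gave 0 calls among the 65 in every alternative run, and at most 0.0858% over all genes, by DESeq2.

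Of the genes chosen under salt, 28 were called under control in a fit of only those groups, against 44 to 52 with each library left out. Of those chosen under control, 43 to 59 were called under salt with each library left out. The cause of these changes was not tested. Os11g0213000 kept its call in wild type in all 24 alternatives.

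Same-numbered libraries did not deviate alike throughout. Their deviations from the group means correlated from -0.66 to 0.73, with 14 of 45 pairs over 0.1. Whether some of these libraries share a batch was not tested. The replicate block gave 0 calls for salt in the FKBP57 knockout, 4 in wild type, and 49 and 45 for genes chosen under control and under salt. Over all tested genes, the block called 5.36% and 20.8% for these salt contrasts. For the FKBP57 knockout against the others, it called 0.343% of all tested genes under salt and 0.196% under control. Genes with few counts limit the salt contrasts outside the FKBP57 knockout.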
